A study of Mus musculus with 6 samples.

Results

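The genes described are those that carry glucose through glycolysis to lactate and through the pentose phosphate pathway. They are 33 genes, chosen by name in the deposited table, of 55736 gene rows in all, and where a name was repeated (Aldoa) the row with the highest mean over the 6 libraries was taken. RNA sequencing had been done on macrophages cultured from mouse bone marrow (bone marrow-derived macrophages). There were 3 LPS libraries, from wild-type cells given 200 ng/ml LPS for 24 h, and 3 control libraries, from wild-type cells labelled as control at 24 h. LPS (lipopolysaccharide) is the outer membrane glycolipid of Gram-negative bacteria that Toll-like receptor 4 senses, and the titles of the treated samples also carry the number 500, with no stated meaning. Whether the libraries of a group stem from separate animals or cultures is not labelled, and p-values here reflect the spread among these libraries only, which can be technical. The values are TPM (an abundance per transcript length, scaled to the same total of 1000000 in every library), so levels of different genes can be set side by side, while read depth is unknown.

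Glycolysis splits glucose into pyruvate in the cytosol and gains a little ATP on the way, and lactate dehydrogenase turns pyruvate into lactate, which leaves the cell through monocarboxylate transporters. The pentose phosphate pathway branches off at glucose 6-phosphate. Its oxidative arm makes NADPH, and its non-oxidative arm shuffles sugar phosphates between ribose 5-phosphate and glycolysis. Macrophages activated by LPS are known for fast glycolysis and lactate release, and for a need for NADPH in oxidant and lipid synthesis.

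Transcripts of glycolysis and lactate export were mostly higher after LPS, and those of the pentose phosphate pathway were mostly lower on TPM as deposited, but not after another scaling. All 33 genes passed the filter of at least 1 TPM in at least 3 libraries, and 32 had at least 1 TPM in all 6. On the log2(TPM + 1) scale, 17 rose, 12 fell and 4 did not pass (limma, Benjamini-Hochberg adjusted p under 0.05 over all 12440 tested genes). Of the 33 genes 29 were called in either direction, against 76.1% of all tested genes, of which 16.3% rose and 59.8% fell. At least 2-fold rises were found in 7 of the 33 genes and in 6.62% of all tested genes, and at least 2-fold falls in 5 of the 33 and in 21.6% of all. The groups did not overlap in the same 29 genes, 17 higher and 12 lower in LPS libraries. Of all tested genes 78.6% had groups that did not overlap, 17.3% higher and 61.4% lower. The median change of the 33 genes was 0.34, against −0.44 for all tested genes, and 23 of the 33 changed by more than that median. Outside the pentose phosphate pathway 16 of 26 genes rose and 7 fell. Within it 1 of 7 rose and 5 fell. In bulk RNA, fewer cells of a type and less RNA per cell cannot be told apart.

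Because every library has the same total, a few abundant transcripts lower all the others, and the transcripts of Saa3 and Fth1 alone took 17.6% ± 0.497 of the total in LPS libraries and 2.02% ± 0.0964 of it in control libraries (SD, n = 3 each). Scaling by the median of ratios moves the median change of all genes to 0.00. After it 22 of the 33 genes rose and 6 fell, against 33.5% and 33.6% of all tested genes. All 17 rises stayed, but this scaling raises every change here, so it puts no rise to a test. Of the 12 falls, 6 stayed lower (Slc2a3, Pfkm, Pfkfb4, Aldoc, Ldhb and Taldo1), 4 were no longer called and 2 turned to a rise. After this scaling 18 of the 26 genes outside the pentose phosphate pathway rose and 5 fell, and within it 4 of 7 rose and 1 fell, the opposite balance to that on TPM as deposited. Where a fall did not hold on both scales, the text says so.

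**Figure D1:**
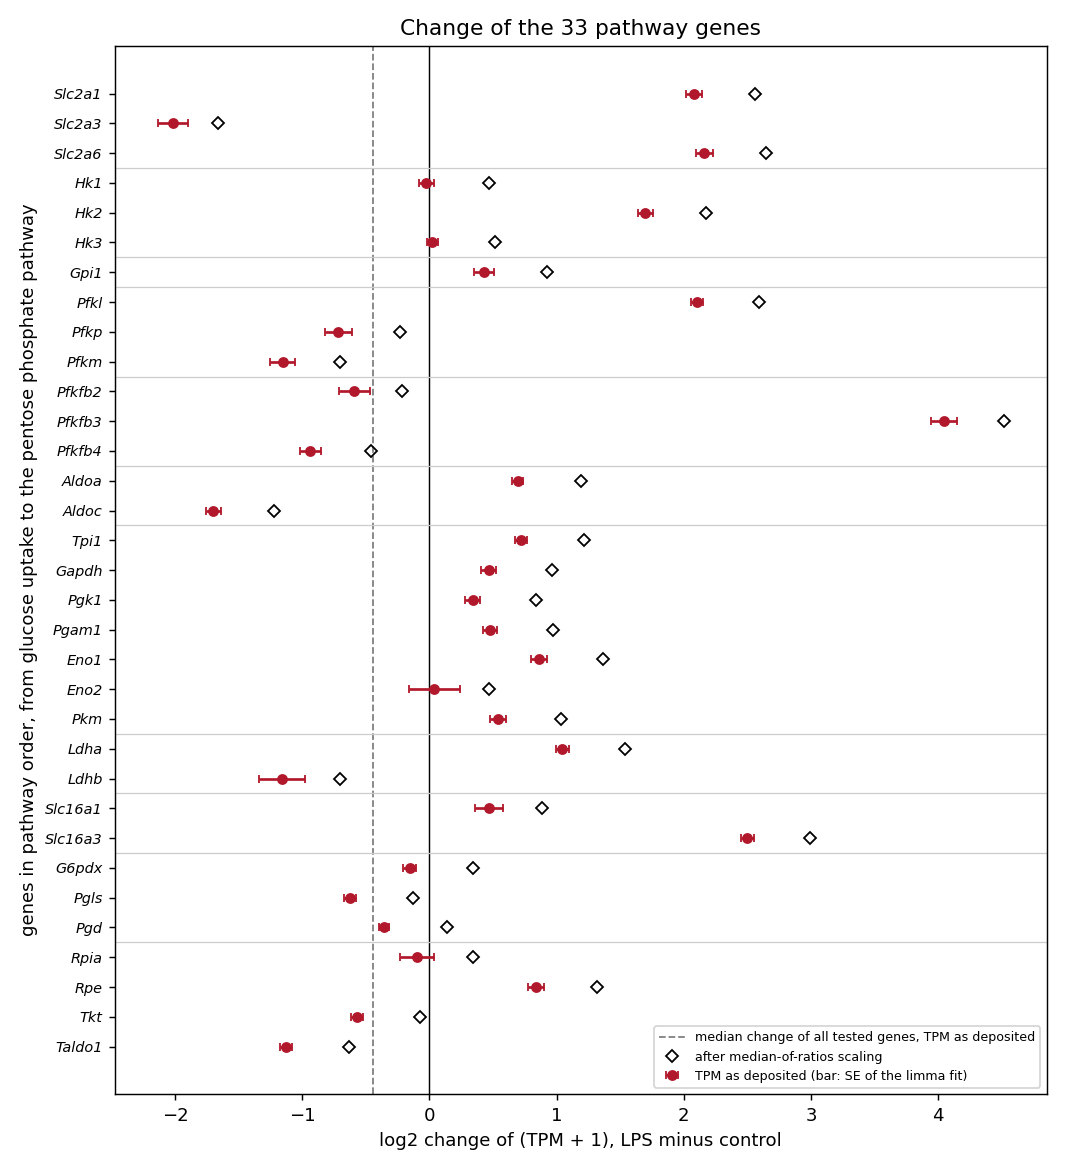
Change of each of the 33 genes on the log2(TPM + 1) scale, LPS minus control, in pathway order from glucose transporters at the top to transaldolase at the bottom. Filled points are TPM as deposited with the SE of the limma fit, open diamonds are values after median-of-ratios scaling, and the dashed line is the median change of all tested genes (−0.44). Pfkfb3 stands farthest to the right (4.05), and Slc2a3 farthest to the left (−2.02).

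The cells carried macrophage transcripts in both groups. All 10 macrophage markers listed (among them Csf1r, Adgre1 and Lyz2) passed the filter, with sums of 35846 to 38359 TPM in LPS libraries and 27378 to 28952 TPM in control libraries. Markers of B, T and NK, dendritic, erythroid, megakaryocyte and stromal cells summed to at most 7.69 TPM in any library. Neutrophil markers summed to 117 to 136 TPM in LPS libraries and 36.6 to 41.6 TPM in control libraries. The 3 of 12 neutrophil markers that passed the filter, S100a8, Mmp8 and Camp, were all called higher, S100a8 18.4-fold. Camp had 3.66 ± 0.535 TPM in LPS libraries and 0.0567 ± 0.0981 TPM in control libraries (SD, n = 3 each). S100a8 and Mmp8 made up most of the sum, with the defining genes Ly6g, Retnlg and Prtn3 listed at 0 in all 6 libraries and Mpo and Elane at 0 in the LPS libraries. Mitochondrially encoded mRNAs, a measure linked to RNA quality and cell state, summed to 21657 ± 697 TPM in LPS libraries and 50004 ± 2323 TPM in control libraries (SD, n = 3 each), and the part of neutrophil or mitochondrial transcripts in the results was not tested.

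The largest rises were in 4 genes for a regulatory enzyme, a subunit of the committed step and transporters of hexose and lactate. Pfkfb3 (ENSMUSG00000026773, GRCm38 chromosome 2, 11471433 to 11554077, minus strand) makes fructose 2,6-bisphosphate, the activator of phosphofructokinase. Slc16a3 (ENSMUSG00000025161, GRCm38 chromosome 11, 120948480 to 120960868, plus strand) encodes the lactate exporter MCT4. Slc2a6 (ENSMUSG00000036067, GRCm38 chromosome 2, 27021363 to 27027998, minus strand) encodes the hexose transporter GLUT6, known mainly from lysosomes, and Pfkl (ENSMUSG00000020277, GRCm38 chromosome 10, 77986947 to 78010083, minus strand) the liver-type phosphofructokinase subunit. The largest falls were in Slc2a3 (ENSMUSG00000003153, GRCm38 chromosome 6, 122727809 to 122801640, minus strand), the transporter GLUT3, and in Aldoc (ENSMUSG00000017390, GRCm38 chromosome 11, 78322968 to 78327781, plus strand), the brain-type aldolase.

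Promoters of these genes are shown because hypoxia-inducible factor, a known activator of glycolytic genes, binds DNA through the core letters ACGTG or GCGTG. Each window runs 5′ to 3′ in the gene's direction from 250 bases before to 50 bases after a RefSeq start (GRCm38.p6), and for genes with several starts the most upstream is printed. Capitals mark ACGTG or GCGTG on either strand.
Pfkfb3, chr2:11553880-11554179, minus strand: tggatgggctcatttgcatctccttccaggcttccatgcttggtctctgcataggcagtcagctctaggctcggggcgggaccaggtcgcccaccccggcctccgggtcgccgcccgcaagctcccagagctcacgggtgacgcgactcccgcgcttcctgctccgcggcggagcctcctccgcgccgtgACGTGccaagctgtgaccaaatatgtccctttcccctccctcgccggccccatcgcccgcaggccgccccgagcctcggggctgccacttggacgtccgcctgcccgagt
Slc16a3, chr11:120948817-120949116, plus strand: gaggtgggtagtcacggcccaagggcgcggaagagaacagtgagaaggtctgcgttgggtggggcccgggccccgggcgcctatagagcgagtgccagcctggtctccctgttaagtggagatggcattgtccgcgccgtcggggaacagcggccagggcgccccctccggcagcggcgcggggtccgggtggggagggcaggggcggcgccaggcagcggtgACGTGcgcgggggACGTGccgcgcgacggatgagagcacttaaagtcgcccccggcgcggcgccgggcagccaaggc
Slc2a6, chr2:27027949-27028248, minus strand: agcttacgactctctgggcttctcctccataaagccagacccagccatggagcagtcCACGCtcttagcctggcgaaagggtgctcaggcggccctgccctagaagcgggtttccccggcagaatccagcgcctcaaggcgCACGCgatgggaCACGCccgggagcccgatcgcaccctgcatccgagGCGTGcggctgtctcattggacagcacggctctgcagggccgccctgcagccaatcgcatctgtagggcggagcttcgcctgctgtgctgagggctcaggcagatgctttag
Pfkl, chr10:78009758-78010057, minus strand: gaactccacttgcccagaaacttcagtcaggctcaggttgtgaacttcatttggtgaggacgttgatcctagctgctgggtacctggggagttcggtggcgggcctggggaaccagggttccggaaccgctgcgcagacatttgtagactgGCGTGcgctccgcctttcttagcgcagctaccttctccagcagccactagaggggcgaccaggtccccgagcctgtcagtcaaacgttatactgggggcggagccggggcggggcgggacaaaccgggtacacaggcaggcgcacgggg
Aldoc, chr11:78322823-78323122, plus strand: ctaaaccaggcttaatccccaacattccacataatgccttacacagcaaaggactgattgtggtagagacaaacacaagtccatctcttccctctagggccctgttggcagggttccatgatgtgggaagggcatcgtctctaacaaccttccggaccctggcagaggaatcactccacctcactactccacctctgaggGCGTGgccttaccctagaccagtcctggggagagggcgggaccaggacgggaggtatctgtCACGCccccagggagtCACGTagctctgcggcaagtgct
The Slc16a3 window held 2 copies of ACGTG, which begin 27 and 14 bases before the start. The printed Pfkfb3 window held 1, which begins 60 bases before its start. Another Pfkfb3 window, not printed, held 4 matches, 2 of ACGTG and 2 of GCGTG. Its 2 of ACGTG were the same CACGTG site read on both strands. Slc2a6 had 4 matches and Pfkl 1, all of GCGTG. Aldoc, which fell, had 3 matches in the printed window, 2 of GCGTG and 1 of ACGTG, and 1 of GCGTG in another. The table matched 32 of the 33 genes, all but Slc2a3, and 28 of them (87.5%) held either core in at least 1 window. Of all genes with a window 46.7% did so, and of the 9151 tested genes that matched, 68.1%. The number of windows per gene differed: 47 for the 32 genes, 11668 for the 9151 tested genes and 32851 for all 27025 genes. A gene with more windows has more chances to hold a core, and these shares were not adjusted for that. Among the pathway genes with a window, 14 of 17 that rose and 11 of 11 that fell held a core. By single core, ACGTG was in 11 of those 17 and 4 of those 11, and in 30.0% of tested genes. GCGTG was in 9 of 17 and 11 of 11, and in 56.3% of tested genes. Whether either core goes with the direction of change was not tested. A match to 5 letters is a description of the window, and CACGTG, which reads the same on both strands, contains ACGTG and was counted on each.

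Among the glucose transporters, transcripts of GLUT1 and GLUT6 were over 4-fold higher after LPS and that of GLUT3 was lower. Slc2a1, the widely expressed basal glucose transporter GLUT1, had 83.9, 81.4 and 88.9 TPM in the LPS libraries, against 18.0, 20.5 and 19.3 TPM in the control libraries. Slc2a6 had 137, 141 and 139 TPM in the LPS libraries, against 27.4, 32.0 and 31.8 TPM in the control libraries. In both genes the lowest LPS library stood far above the highest control library, with a 4.4-fold difference of means for Slc2a1 and 4.58-fold for Slc2a6. Their changes on the log2(TPM + 1) scale were 2.08 (SE 0.07, limma adjusted p = 1.82e-07) and 2.16 (SE 0.07, limma adjusted p = 1.85e-07). Slc2a3, the high-affinity transporter GLUT3, was scarce, with 0.950, 1.41 and 1.04 TPM in the LPS libraries, against 7.7, 8.0 and 7.15 TPM in the control libraries. Its groups did not overlap, LPS library 1 had under 1 TPM, and its change was −2.02 (SE 0.12, limma adjusted p = 4.00e-06), a rank of 718 among the largest falls of all tested genes. Summed over the 3 genes, transporter transcripts came to 225 ± 3.56 TPM in LPS libraries and 57.3 ± 3.76 TPM in control libraries (SD, n = 3 each). Hexose transporters outside the 33 genes are not in this sum. Slc2a8 had 10.6 ± 0.233 TPM in LPS libraries and 32.5 ± 0.801 TPM in control libraries. Slc2a9, named after its values were seen, had 15.0 ± 0.606 TPM in LPS libraries and 13.2 ± 0.222 TPM in control libraries.

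Hexokinases trap glucose by phosphorylation, and of the 3 measured only Hk2 was called on TPM as deposited. Hk2, the inducible isozyme, had 48.5, 49.7 and 51.9 TPM in the LPS libraries, against 14.2, 14.6 and 15.4 TPM in the control libraries, a change of 1.70 (SE 0.06, limma adjusted p = 3.01e-07). Hk3 was the most abundant hexokinase transcript in every library, with 233, 231 and 249 TPM in the LPS libraries, against 229, 237 and 236 TPM in the control libraries. Hk1, the housekeeping isozyme, had 55.8, 53.4 and 59.6 TPM in the LPS libraries, against 55.5, 57.6 and 58.3 TPM in the control libraries. The groups of Hk3 and Hk1 overlapped, and neither passed (adjusted p = 0.642 and 0.718, limma). Both passed as higher after median-of-ratios scaling, with log2 changes of 0.52 and 0.47 (limma adjusted p = 2.08e-05 and 0.000141). Hk2 held 14.5 ± 0.279% of hexokinase transcripts in LPS libraries and 4.81 ± 0.137% in control libraries, a share that no scaling of a library can change (exact two-sided permutation p = 0.1). That is the smallest p that 3 against 3 libraries allow, and it was reached by all 31 sums, shares and ratios tested this way, with a Benjamini-Hochberg adjusted p = 0.1 over them. Gpi1, which turns glucose 6-phosphate into fructose 6-phosphate, had 437 ± 39.5 TPM in LPS libraries and 325 ± 23.1 TPM in control libraries (SD, n = 3 each), a 1.35-fold rise (adjusted p = 0.00182, limma).

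Phosphofructokinase catalyses the committed step of glycolysis as a tetramer of L, P and M subunits, and the transcript of the L subunit rose while that of the M subunit fell. Pfkl had 119, 117 and 121 TPM in the LPS libraries, against 26.3, 27.4 and 27.0 TPM in the control libraries, which do not overlap, and its change was 2.11 (SE 0.05, limma adjusted p = 4.05e-08). Pfkp, the platelet-type subunit, had 26.8, 27.8 and 35.5 TPM in the LPS libraries, against 49.4, 50.8 and 48.5 TPM in the control libraries. LPS library 3 stood above the other LPS libraries there, still below every control library. The fall of Pfkp (−0.71, adjusted p = 0.000522, limma) was not called after median-of-ratios scaling (−0.23, adjusted p = 0.0647). Pfkm, the muscle-type subunit, had 7.03, 7.55 and 6.79 TPM in the LPS libraries, against 15.4, 19.2 and 16.8 TPM in the control libraries, a change of −1.15 (SE 0.10, limma adjusted p = 2.82e-05). Pfkl made up 77.9, 76.8 and 74.2% of the 3 subunit transcripts in the LPS libraries, against 28.9, 28.2 and 29.3% in the control libraries. The most abundant subunit transcript was thus Pfkl in each LPS library and Pfkp in each control library.

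The Pfkfb genes encode two-way enzymes that make and break fructose 2,6-bisphosphate, and they exchanged rank. Pfkfb3, whose isozyme strongly favours synthesis, had 196, 189.7 and 222 TPM in the LPS libraries, against 9.61, 12.4 and 12.1 TPM in the control libraries. Every LPS library was more than 10-fold above every control library. The means differed 17.8-fold, with a log2 change of 4.05 (SE 0.10, limma adjusted p = 7.57e-08), and Pfkfb3 ranked 92 by rise among all 12440 tested genes. Pfkfb4 had 19.3, 18.5 and 17.7 TPM in the LPS libraries, against 32.7, 39.3 and 37.3 TPM in the control libraries, a change of −0.94 (SE 0.08, limma adjusted p = 3.26e-05). Pfkfb2, the heart-type isozyme, was low, with 2.31 ± 0.210 TPM in LPS libraries and 4.0 ± 0.541 TPM in control libraries (SD, n = 3 each). Its fall (−0.59, adjusted p = 0.00292, limma) was not called after median-of-ratios scaling (adjusted p = 0.142). Pfkfb3 held 90.6 ± 0.888% of the 3 transcripts in LPS libraries and 21.9 ± 1.2% in control libraries. Pfkfb4 held 8.33 ± 0.868% in LPS libraries and 70.3 ± 0.795% in control libraries. Pfkfb1, outside the 33 genes and named after its values were seen, is not in these shares. It had 1.54 ± 0.296 TPM in LPS libraries and 4.32 ± 0.177 TPM in control libraries (SD, n = 3 each). It was called lower on both scales (limma adjusted p = 0.000132, and 0.00135 after median-of-ratios scaling).

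**Figure D2:**
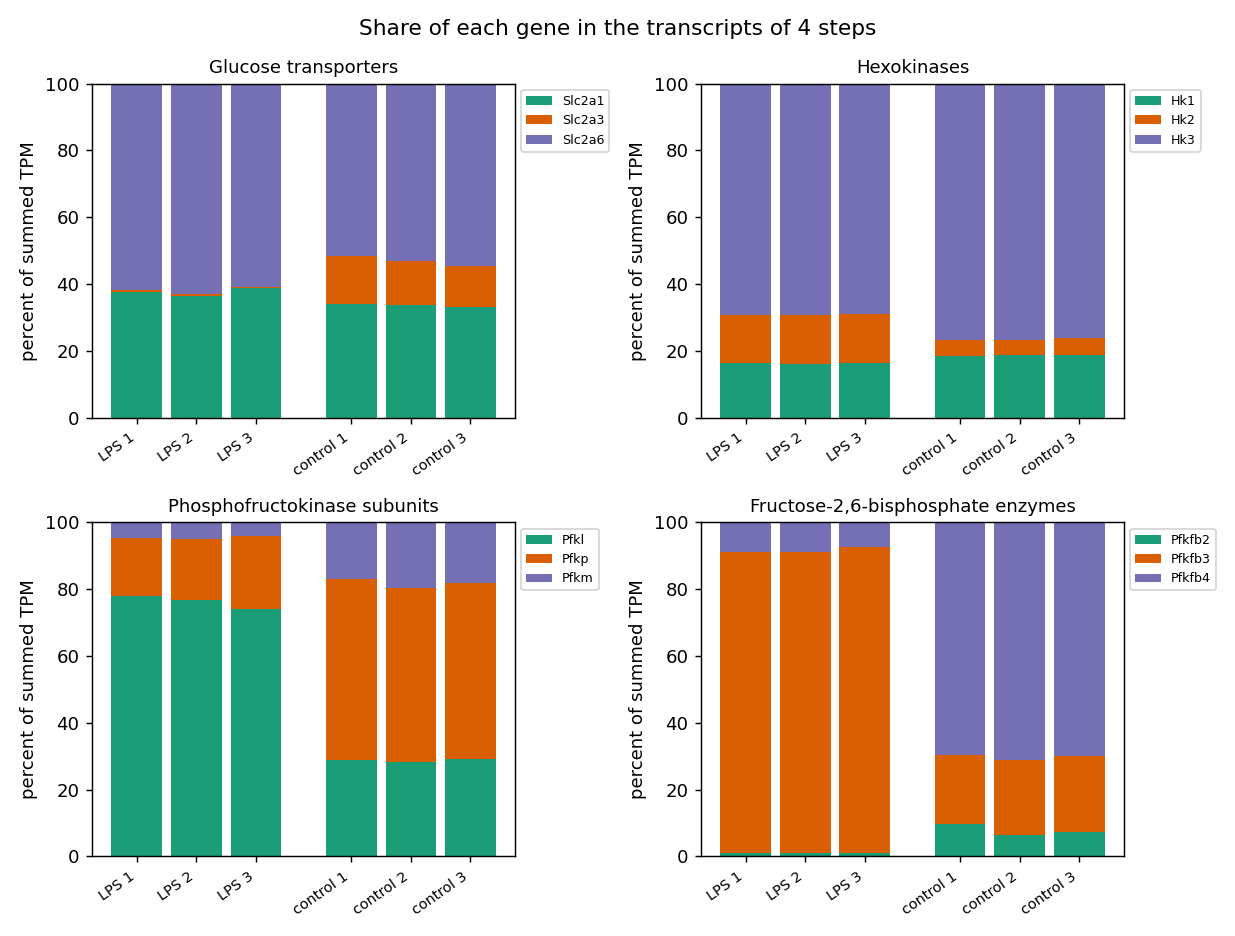
Share of each gene in the summed TPM of 4 steps, as stacked bars (percent, from 0), 1 bar per library with LPS libraries at the left and control libraries at the right of each panel. Pfkl and Pfkfb3 fill most of their bars in the LPS libraries, and Pfkp and Pfkfb4 hold the largest part in the control libraries, while Hk3 leads in all 6.

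From aldolase to pyruvate kinase the abundant isozymes rose by modest factors. Aldoa, which cleaves fructose 1,6-bisphosphate, had 2683, 2643 and 2722 TPM in the LPS libraries, against 1705, 1636 and 1635 TPM in the control libraries, a 1.62-fold difference of means. Aldoc fell, with 12.4, 11.5 and 12.5 TPM in the LPS libraries, against 41.6, 42.6 and 40.9 TPM in the control libraries, a log2 change of −1.70 (SE 0.06, limma adjusted p = 3.11e-07). Aldoa thus supplied 99.5 ± 0.0139% of the transcripts of both in LPS libraries and 97.5 ± 0.0785% in control libraries. Gapdh was the most abundant of the 33 transcripts, with 6043, 6220.3 and 6742 TPM in the LPS libraries, against 4448, 4599 and 4695 TPM in the control libraries. Its lowest LPS library lay above its highest control library, and this enzyme, whose mRNA often serves as a loading reference, rose 1.38-fold, a log2 change of 0.47 (SE 0.06, limma adjusted p = 0.000207). Pkm, pyruvate kinase, followed with 3091, 2969 and 3314 TPM in the LPS libraries, against 2085, 2293 and 2073 TPM in the control libraries, a 1.45-fold rise (adjusted p = 0.000155, limma). The table gives 1 value for Pkm, so its M1 and M2 splice forms were not told apart.

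Of the 7 genes from Tpi1 to Pkm, 6 rose and 1 did not pass, on either scale. Tpi1, triose phosphate isomerase, had 592 ± 14.4 TPM in LPS libraries and 359 ± 12.5 TPM in control libraries (SD, n = 3 each), 1.65-fold higher. Pgk1, which makes the first ATP of the pathway, had 682 ± 22.7 TPM in LPS libraries and 539 ± 34.6 TPM in control libraries, and Pgam1, phosphoglycerate mutase, 675 ± 23.5 TPM in LPS libraries and 485 ± 29.7 TPM in control libraries. They rose 1.27-fold and 1.39-fold. Eno1, the widely expressed enolase, rose the most of the 7, with 1242, 1264 and 1350.03 TPM in the LPS libraries, against 729.8, 737 and 649.6 TPM in the control libraries, a 1.82-fold rise with a log2 change of 0.87 (SE 0.06, limma adjusted p = 1.27e-05). Eno2, the neuronal enolase, was low and overlapped between groups, with 4.59, 8.63 and 7.92 TPM in the LPS libraries, against 6.22, 6.88 and 6.78 TPM in the control libraries. It did not pass (adjusted p = 0.868, limma), LPS library 1 lay below the other 5, and without that library Eno2 was called higher (adjusted p = 0.0461). Summed over the 7 genes, these transcripts came to 12317, 12362 and 13423 TPM in the LPS libraries, against 8662, 9088 and 8726 TPM in the control libraries. Processed pseudogenes of Gapdh, Pgam1, Aldoa and others may share reads with these genes. The 24 rows named or described as copies of a gene here, a second Aldoa row included, were added to it as an alternative, and no call changed.

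**Figure D3:**
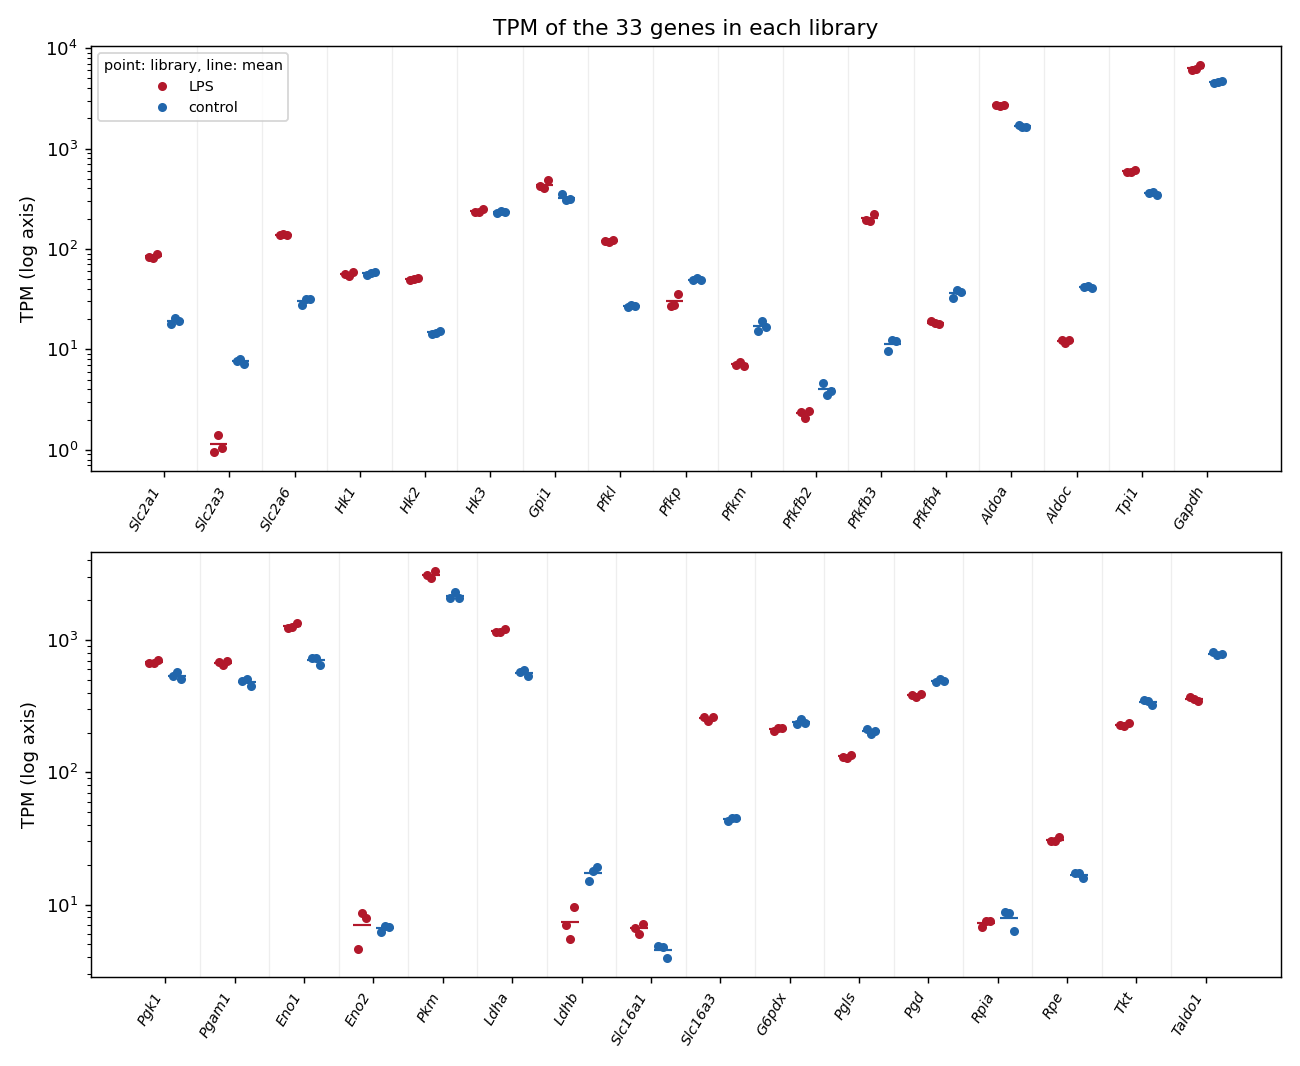
TPM of the 33 genes in each library on a log axis, in pathway order over 2 panels, with LPS points left of control points for each gene and a line at the mean. The groups overlap for Hk1, Hk3, Eno2 and Rpia, and the levels run from about 1 TPM for Slc2a3 in LPS libraries to 6742 TPM for Gapdh.

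At the lactate end, the muscle-type dehydrogenase and the exporter rose together. Ldha, whose subunit favours pyruvate to lactate, had 1159, 1142 and 1204 TPM in the LPS libraries, against 575, 592 and 533 TPM in the control libraries. The groups lay far apart, at a 2.06-fold difference of means and a log2 change of 1.04 (SE 0.05, limma adjusted p = 1.70e-06). Ldhb, whose subunit favours the reverse, had 6.97, 5.51 and 9.53 TPM in the LPS libraries, against 15.1, 17.8 and 19.1 TPM in the control libraries, a change of −1.16 (SE 0.18, limma adjusted p = 0.000729). Ldha held 99.4 ± 0.154% of the transcripts of both in LPS libraries and 97.0 ± 0.459% in control libraries. Slc16a3 had 261, 245 and 262 TPM in the LPS libraries, against 42.8, 45.4 and 44.8 TPM in the control libraries. This was the second largest rise of the 33, 5.77-fold with a log2 change of 2.50 (SE 0.05, limma adjusted p = 2.81e-08) and rank 238 of all tested genes. Slc16a1, the transporter MCT1 that moves lactate both ways, was low, with 6.69, 6.04 and 7.18 TPM in the LPS libraries, against 4.86, 4.75 and 3.94 TPM in the control libraries, and rose 1.47-fold (adjusted p = 0.00564, limma).

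On TPM as deposited 5 of the 7 pentose phosphate genes fell (71.4%), near the 59.8% of all tested genes that fell. Their median change was −0.36, against −0.44 for all tested genes, and 4 of the 7 were above that median. After median-of-ratios scaling 4 of the 7 rose and 1 fell, against 33.5% and 33.6% of all tested genes. In the oxidative arm all 3 genes fell on TPM as deposited. G6pdx, the rate-limiting glucose 6-phosphate dehydrogenase, had 207, 218 and 218 TPM in the LPS libraries, against 231, 251 and 235 TPM in the control libraries. The gap was narrow, and the change of −0.16 (SE 0.05, limma adjusted p = 0.0214) turned to 0.34 after median-of-ratios scaling (adjusted p = 0.000306). It was also not called without LPS library 1 (adjusted p = 0.0823) or with limma without its trend (adjusted p = 0.0592). Pgd, which yields the second NADPH, had 382, 374 and 393 TPM in the LPS libraries, against 479, 504 and 489 TPM in the control libraries, a change of −0.36 (adjusted p = 0.000154, limma) that turned to 0.14 after that scaling (adjusted p = 0.00988). Pgls, the lactonase between them, had 132 ± 3.1 TPM in LPS libraries and 204 ± 8.1 TPM in control libraries (SD, n = 3 each), a fall that was not called after scaling (adjusted p = 0.0510). Relative to the median of all genes, the 3 changes were 0.29, 0.09 and −0.18 for G6pdx, Pgd and Pgls.

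In the non-oxidative arm the fall of transaldolase held on both scales. Taldo1 had 374, 361 and 346 TPM in the LPS libraries, against 819, 768 and 783 TPM in the control libraries. The groups were wide apart, with a fold of 0.457 and a log2 change of −1.13 (SE 0.05, limma adjusted p = 7.36e-07). After median-of-ratios scaling it was still lower (−0.63, adjusted p = 6.16e-05). Tkt, transketolase, had 226, 224 and 236 TPM in the LPS libraries, against 353, 345 and 324 TPM in the control libraries, a change of −0.57 (adjusted p = 2.73e-05, limma) that was not called after scaling (−0.07, adjusted p = 0.150). Rpe, ribulose 5-phosphate epimerase, went the other way, with 30.1, 30.5 and 32.3 TPM in the LPS libraries, against 17.3, 17.2 and 16.0 TPM in the control libraries and a change of 0.84 (SE 0.06, limma adjusted p = 1.41e-05). Rpia, ribose 5-phosphate isomerase, had 6.8, 7.47 and 7.48 TPM in the LPS libraries, against 8.81, 8.6 and 6.29 TPM in the control libraries. Its groups overlapped, and it did not pass (adjusted p = 0.515, limma), but with median-of-ratios scaling it was called higher (0.34, adjusted p = 0.0419).

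Set against glycolysis within the same library, the sum of pentose phosphate transcripts was lower after LPS whatever the scaling. The 7 genes summed to 1357, 1345 and 1368 TPM in the LPS libraries, against 2119, 2089 and 2058 TPM in the control libraries. The glycolysis genes from hexokinase to pyruvate kinase, without the transporters and Pfkfb genes, summed to 15928, 15909 and 17163 TPM in the LPS libraries, against 11149, 11483 and 11117 TPM in the control libraries. Their ratio was 0.0832 ± 0.00301 in LPS libraries and 0.186 ± 0.00412 in control libraries (SD, n = 3 each). No LPS ratio reached a control ratio, the mean LPS ratio was 0.448 of the mean control ratio, and the exact two-sided permutation test gave p = 0.1. Both sums moved: the pentose phosphate sum had a fold of 0.650 and the glycolysis sum a fold of 1.45 on TPM as deposited, or 0.917 and 2.05 after median-of-ratios scaling. Abundant genes weigh most in both sums, so the ratio does not describe each gene. Taldo1 had 361 ± 14.0 TPM in LPS libraries and 790 ± 26.3 TPM in control libraries (SD, n = 3 each). Rpe, at far lower levels, rose 1.84-fold on TPM as deposited.

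**Figure D4:**
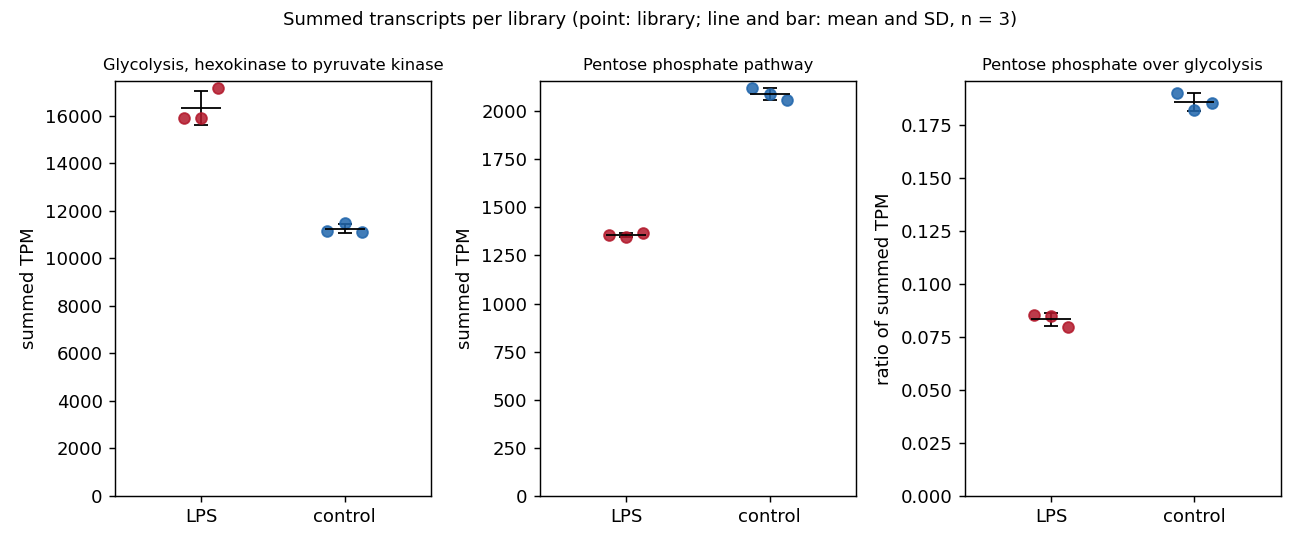
Summed TPM of the glycolysis genes (left) and of the pentose phosphate genes (middle), and the ratio of the second to the first (right), with axes from 0. Points are libraries, and lines with bars are the mean and SD of 3; the LPS ratios lie between 0.0797 and 0.0852, all below the control ratios of 0.182 to 0.190.

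Where a step had several genes, the isozymes did not always move together. Of 8 such steps, 5 had genes called in both directions (glucose transporters, phosphofructokinase, the Pfkfb enzymes, aldolases and lactate dehydrogenase). The same 5 did so after median-of-ratios scaling. Rises made up 16.3% and falls 59.8% of all tested genes, or 33.5% and 33.6% after that scaling. How often other groups of genes of this size part in this way was not tested. The wide changes lay among genes less abundant in control libraries. The control level is also the divisor of the fold, so this split and the folds are not independent. The 12 genes with at least 300 TPM in control libraries had folds between 0.457 (Taldo1) and 2.06 (Ldha), while the other 21 had folds between 0.149 (Slc2a3) and 17.8 (Pfkfb3). Together the 33 genes made up 1.96% ± 0.0787 of TPM in LPS libraries and 1.41% ± 0.0239 in control libraries (SD, n = 3 each).

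Libraries of a group were not equal. LPS library 3 was the highest of its group in 26 of the 33 genes (78.8%), where it was so in 46.8% of all tested genes. Control library 2 was the highest of its group in 20 of the 33 (60.6%), against 46.8% of all tested genes. The spread was small beside the differences in most of the 33 genes, but the groups of Hk1, Hk3, Eno2 and Rpia overlapped. The median coefficient of variation of the 33 genes was 4.38% in LPS libraries and 5.32% in control libraries, against 7.89% and 7.98% for all tested genes. The largest among the 33 genes was 30.6% in LPS libraries and 17.7% in control libraries.

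Other genes of the pathway and of its entry and exit points were taken from a list of 66, of which 44 passed the filter. Of these, 12 rose and 25 fell, and with median-of-ratios scaling 25 rose and 12 fell. Of all tested genes 16.3% rose and 59.8% fell, or 33.5% and 33.6% with that scaling. The list had a median change of −0.26 on TPM as deposited, against −0.44 for all tested genes. The largest rise was in Gpd2, the mitochondrial enzyme of the glycerol phosphate shuttle, which passes electrons of cytosolic NADH to the respiratory chain, with 54.3, 53.2 and 55.4 TPM in the LPS libraries, against 6.84, 6.94 and 5.84 TPM in the control libraries, a log2 change of 2.88 (SE 0.08, limma adjusted p = 8.58e-08). Hif1a, the oxygen-sensitive subunit of hypoxia-inducible factor, had 79.7, 75.2 and 77.5 TPM in the LPS libraries, against 26.6, 32.8 and 28.2 TPM in the control libraries, a 2.65-fold rise (adjusted p = 4.05e-06, limma). Gys1, muscle-type glycogen synthase, rose 2.24-fold, and Pgm1, which links glucose 6-phosphate to glycogen, 1.77-fold. Tigar, which breaks down fructose 2,6-bisphosphate and so opposes Pfkfb3, was low and rose 1.8-fold, with 8.61 ± 0.721 TPM in LPS libraries and 4.79 ± 0.552 TPM in control libraries (SD, n = 3 each). Mlx, partner of the glucose-sensing factors ChREBP and MondoA, rose 1.49-fold.

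The largest falls on that list were in Pdk2, a kinase that inhibits pyruvate dehydrogenase, and in Prps2, which makes phosphoribosyl pyrophosphate from ribose 5-phosphate. Pdk2 had 4.33, 3.22 and 5.15 TPM in the LPS libraries, against 17.3, 16.3 and 17.4 TPM in the control libraries, a log2 change of −1.80 (SE 0.14, limma adjusted p = 1.80e-05). Prps2 had 8.59, 6.36 and 6.38 TPM in the LPS libraries, against 29.4, 29.9 and 21.8 TPM in the control libraries, a log2 change of −1.79 (SE 0.16, limma adjusted p = 3.22e-05). Myc, a transcription factor that activates glycolytic and growth genes, fell, with 12.1 ± 0.231 TPM in LPS libraries and 39.9 ± 4.81 TPM in control libraries (SD, n = 3 each). Slc2a8, the intracellular hexose transporter GLUT8, Gpd1l, related to cytosolic glycerol phosphate dehydrogenase, and Pdp1, a phosphatase that activates pyruvate dehydrogenase, fell to folds of 0.327, 0.385 and 0.381. All 12 genes named from the list held their direction and their call on both scales. Shpk, named after its values were seen, encodes the sedoheptulose kinase that feeds the non-oxidative arm, and fell as well, with 1.13, 1.56 and 1.52 TPM in the LPS libraries, against 2.45, 3.52 and 3.29 TPM in the control libraries (adjusted p = 0.00232, limma, and 0.0325 after median-of-ratios scaling).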

How the data were processed

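The deposited table holds TPM per gene for 6 libraries, 3 LPS and 3 control, made by the authors, with 2 decimals. Each library sums to 1000000 TPM within 0.75. Bowtie 0.12.2 and the builds mm8 and mm9 are listed, without a role, per the submitters' processing notes. The tool behind TPM, its annotation and any use of strand were not given in the sources used here. TPM keeps no read depth, so no counting error can be given. Genes at 1 TPM or more in at least 3 libraries (12440) were tested with limma 3.58.1 (R 4.3.3, eBayes with a trend) on the log2(TPM + 1) scale, as a two-sided test of LPS minus control adjusted by Benjamini-Hochberg over the 12440 genes, at a limit of 0.05. This scale understates changes of low genes. Sums, shares and ratios per library were compared by exact permutation. Gene coordinates come from GENCODE M21 (GRCm38) by gene ID, which matched all 33 genes, and promoters from RefSeq (GRCm38.p6). All 33 genes are named, with the 6 largest rises and 6 largest falls of the list of 66; promoters are those of the 4 largest rises and 2 largest falls where the table has them. The genes and lists were chosen with earlier results of these data known. Alternatives were other pseudocounts (0.1 and 5 TPM), no filter or 5 TPM, median-of-ratios scaling, leaving out Saa3 and Fth1, no trend, copies added, a replicate block, and leaving out each library.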

Additional observations from a re-analysis of the deposited data

How the results depend on the processing

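Read depth is unknown, so what depth limits cannot be given. Of the choices tried, scaling mattered most, and single-gene calls were followed for the 33 genes and the 12 largest changes of the list of 66. With median-of-ratios scaling 6 of the 33 genes were called lower, 25 genes of the list of 66 were called higher and 12 lower, and of all tested genes 4167 were called higher and 4181 lower. With Saa3 and Fth1 left out 19 of the 33 genes were called higher and 11 lower, 16 genes of the list of 66 higher and 15 lower, and of all tested genes 2938 higher and 5784 lower. Summed TPM had these folds, LPS over control, after median-of-ratios scaling and with Saa3 and Fth1 left out: glucose transporters 5.54 and 4.67, hexokinases 1.59 and 1.34, phosphoglucose isomerase 1.9 and 1.6, phosphofructokinase subunits 2.36 and 1.99, Pfkfb enzymes 6.09 and 5.13, aldolases 2.24 and 1.885, Tpi1 to Pkm 2.03 and 1.71, lactate dehydrogenase 2.84 and 2.395, monocarboxylate transporters 7.58 and 6.39, the oxidative arm 1.10 and 0.929, the non-oxidative arm 0.767 and 0.646, all pentose phosphate genes 0.917 and 0.773, glycolysis 2.05 and 1.73, and all 33 genes 1.96 and 1.65. The sum of the oxidative arm so turned from lower to higher under the first of these scalings. Shares within a step and the pentose phosphate to glycolysis ratio cannot move with scaling.

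Either scaling multiplies all values of a library by 1 factor, which by construction moves all changes together. Single genes that changed sign after median-of-ratios scaling were Hk1 (0.47), G6pdx (0.34), Pgd (0.14) and Rpia (0.34), on the log2 scale. All 4 were then called higher. Pfkp, Pfkfb2, Pgls and Tkt were no longer called. With Saa3 and Fth1 left out Hk1 (0.22), G6pdx (0.0939) and Rpia (0.12) changed sign, with Hk1 called higher, G6pdx no longer called and Rpia not called. Hk3 was called higher under both scalings. Leaving out 1 library at a time gave changes of −0.0652 to 0.0129 for Hk1, −0.0092 to 0.044 for Hk3 and −0.11 to 0.2823 for Eno2. The sign turned for Hk1 (0.0129) and Eno2 (−0.11) without LPS library 2 and for Hk3 (−0.0092) and Eno2 (−0.0548) without LPS library 3, with none of these called. Leaving out each library in turn gave 17 to 18 rises and 11 to 12 falls among the 33 genes, and a pentose phosphate to glycolysis ratio in LPS of 0.442 to 0.457 of that in control. G6pdx was lost without LPS library 1 and without the trend, and Eno2 was gained without LPS library 1. With a filter of 5 TPM Pfkfb2 was not tested, which left 11 falls. Both pseudocounts, no filter and the added copies changed no call of the 33 genes.

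LPS and control samples share replicate numbers, and whether same-numbered libraries belong together is not labelled. Correlations of their deviations over tested genes were weak (0.07, −0.15 and 0.08). Deviations from means of 3 libraries cannot decide whether the numbers pair them. With the replicate number as a block the 33 genes gave 17 rises and 12 falls, and all tested genes 1993 rises and 7304 falls; no call changed among the 33 genes and those 12, while the list of 66 gave 11 rises and 23 falls.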

Other observations

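Among the genes next to glycolysis, 9 of glycogen handling were tested, of which 3 rose and 5 fell, and with median-of-ratios scaling 6 rose and 2 fell. Of all tested genes 16.3% rose and 59.8% fell, and with that scaling 33.5% and 33.6%. Beside Gys1 and Pgm1, the third rise was in Gbe1, the branching enzyme, with 27.5 ± 1.34 TPM in LPS libraries and 18.9 ± 0.982 TPM in control libraries (SD, n = 3 each, limma adjusted p = 0.000289). Pygb, a glycogen phosphorylase, had 26.0 ± 1.28 TPM in LPS libraries and 59.3 ± 1.65 TPM in control libraries (adjusted p = 1.69e-06, limma), and its fall held after that scaling (−0.68 on the log2 scale). Pygl, the other phosphorylase measured, had 64.9 ± 1.28 TPM in LPS libraries and 68.4 ± 1.53 TPM in control libraries and did not pass (adjusted p = 0.177, limma), but was called higher after scaling. Ugp2, which makes UDP-glucose, had a fold of 0.836 and was called lower on TPM as deposited and higher after scaling.

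Bsg and Emb, chaperones that carry monocarboxylate transporters to the membrane, were both higher. Emb had 196 ± 4.75 TPM in LPS libraries and 146 ± 6.46 TPM in control libraries and Bsg 412 ± 2.66 TPM in LPS libraries and 364 ± 5.11 TPM in control libraries (SD, n = 3 each, limma adjusted p = 0.000132 and 0.00284). Pgam1-ps2, a pseudogene of Pgam1 by its name, had 45.8, 50.7 and 45.8 TPM in the LPS libraries, against 17.3, 33.7 and 58.3 TPM in the control libraries, with a wide spread among the control libraries. The genes named here were chosen after their values were seen, from the list of 66 except Pgam1-ps2.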
